A study of Mus musculus with 24 samples.

Results

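Regulatory T cells (Treg) were compared across all genes with conventional CD4 T cells (Tconv) sorted from mice given OX40L and JAG1. The members were the 3 libraries titled OX40L-JAG1 Treg and the 3 titled OX40L-JAG1 Tconv, chosen by title alone, which are 6 of the 24 libraries of the study. Those 24 cover 4 sorted CD4 subsets from treated and control mice, with 3 libraries in each of 8 groups. All mice were female NZBWF1/j, a hybrid strain prone to a lupus-like disease, and were 23 weeks old at the first dose. Treated mice received recombinant mouse OX40L and mouse JAG1, each at 2 mg/kg body weight, by intraperitoneal injection in 3 weekly doses. Controls of the same age and sex received PBS, and all cells were collected in week 26. Tconv cells were sorted as CD4+CXCR5-GITR- and Treg cells as CD4+CXCR5-GITR+, so the Treg gate rests on the surface receptor GITR and not on the factor Foxp3. The labels give neither the organ the cells came from nor whether the libraries of a group came from separate mice. The p-values therefore measure only the spread between libraries, which may be technical.

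Treg cells are CD4 T cells that restrain immune responses, and most depend on the transcription factor Foxp3. They take up IL-2 through the high-affinity receptor chain CD25, hold back costimulation through CTLA-4 and can act on other cells through IL-10 and through adenosine made on their surface. Tconv cells include naive cells, which recirculate through lymph nodes, and memory and helper cells. OX40, the receptor of OX40L, is a costimulatory receptor that signals to NF-kB, and JAG1 is a ligand of Notch receptors.

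The 6 libraries held 37.3 to 53.8 M (mega) counts. Levels are given in CPM, the counts of a gene per M counts of the library total after scaling by the TMM method, in the order of the library numbers, and fold changes as the log2 of Treg over Tconv with their standard error. Treg library 3 stood apart in its transcripts of kidney cells. Podocyte markers (podocytes line the kidney filter) came to 178 CPM there, to 24.2 and 24.8 CPM in the other Treg libraries and to 8.14 to 10.3 CPM in the Tconv libraries. Control Tconv libraries 1 and 2, used only where treated and control mice are set side by side, held more, with 1360 and 1336 CPM against 7.86 CPM in control Tconv library 3. Counts are therefore also given without treated Treg library 3. Contrasts with control mice are also given without all 3 of these kidney libraries, as sizes only. Control Tconv library 3 is then alone in its group.

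Treg and Tconv cells of treated mice differed at most of the genes measured. Of 15729 genes tested, 9531 (60.6%) passed an adjusted p of 0.05 in edgeR's quasi-likelihood test with Benjamini-Hochberg adjustment. Of these, 4782 (30.4% of those tested) were higher and 4749 (30.2%) lower in Treg cells. A difference of at least 2-fold as well left 3414 genes (21.7%), of which 2110 (13.4%) were higher and 1304 (8.29%) lower. The counts given for gene lists below stand beside these shares of all genes tested. The median log2 fold change over all genes was -0.01. Replicates lay close together, with a biological coefficient of variation of 0.116, and the CPM values of the groups did not overlap for 10334 genes (65.7%). Without Treg library 3, 8860 of the 9531 genes were called in the same direction, and 9475 were called in all. A fit of all 24 libraries, whose coefficient of variation was 0.617, called 2226 genes, and 2210 of the 9531 were called in the same direction there.

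**Figure D1:**
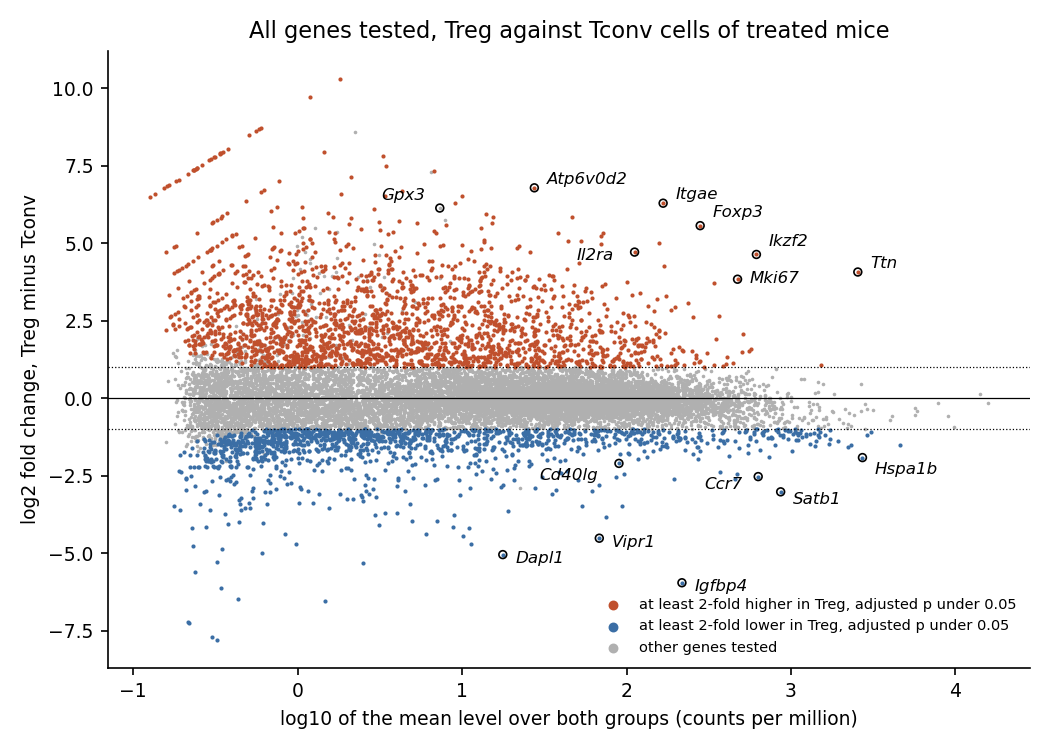
Each point is a gene, with the log10 of its mean CPM over the 6 libraries on the horizontal axis and its log2 fold change, Treg minus Tconv, on the vertical axis; dotted lines mark a 2-fold difference. Red points are the 2110 genes at least 2-fold higher in Treg cells and blue points the 1304 at least 2-fold lower, and Gpx3, a kidney gene at 42.8 CPM in Treg library 3 and under 0.3 CPM in the other 5 libraries, is marked in grey among the highest.

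The sorted identities were checked first. Foxp3 (chrX:7573644-7595245, mm10), the factor that defines regulatory cells, stood at 12.8, 12.1 and 10.7 CPM in the Tconv libraries and at 581, 564 and 503 CPM in the Treg libraries. Every Treg library lay far above every Tconv library, with a log2 fold change of 5.56 ± 0.073 and an adjusted p of 8.35e-16. Of the exonic bases of Foxp3, a share of 0.455 is also annotated to other genes, among them Ccdc22 and Flicr, so its level is uncertain where reads could be split. Tnfrsf18, which encodes the gate receptor GITR, was at 34.2, 30.5 and 31.5 CPM in Tconv cells and at 140, 146 and 126 CPM in Treg cells (log2 fold change 2.13 ± 0.061). The groups did not overlap, but the gate gene was found in both. Cd4, shared by both gates, was at 870, 856 and 823 CPM in Tconv and 661, 659 and 599 CPM in Treg libraries, lower in Treg cells by a small step (log2 fold change -0.38 ± 0.045). Cd8a, which defines CD8 T cells, reached at most 0.327 CPM in the 6 libraries. In such bulk samples fewer cells of a type and less RNA per cell cannot be told apart.

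**Figure D2:**
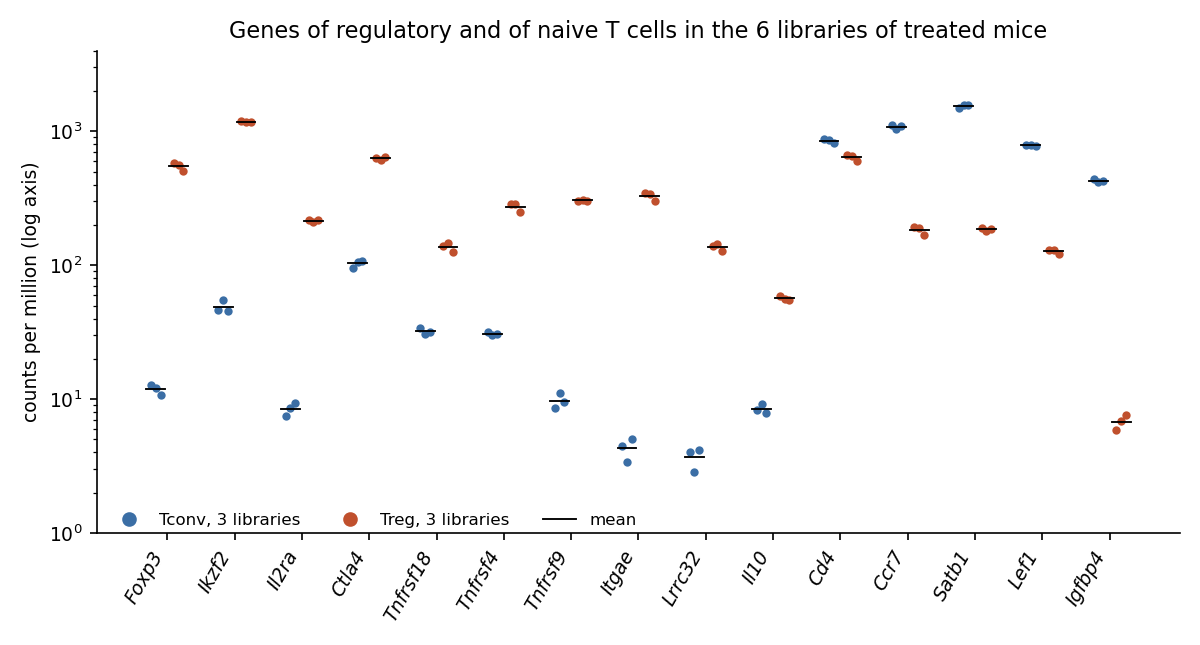
The CPM of 15 genes in the 3 Tconv (blue) and 3 Treg (red) libraries of treated mice on a log axis, with black lines at the group means. The 2 groups of points are apart for all 15 genes, Foxp3 to Il10 higher in Treg cells and Cd4, Ccr7, Satb1, Lef1 and Igfbp4 lower.

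Most transcription factors known from Treg cells were higher in the Treg libraries. Of 14 listed, 12 were higher and 2 lower, 9 of them at least 2-fold higher, with a median log2 fold change of 1.46. Ikzf2 (chr1:69531214-69687245), which encodes the Ikaros family factor Helios, was at 46.4, 54.7 and 45.4 CPM in Tconv and at 1198, 1171 and 1185 CPM in Treg cells. The groups lay far apart, with little spread among the Treg libraries (log2 fold change 4.63 ± 0.069, adjusted p = 1.17e-15). Its relative Ikzf4, which encodes Eos, was at 5.42, 7.59 and 6.07 CPM in Tconv and at 54.8, 56.6 and 52.2 CPM in Treg cells (log2 fold change 3.14 ± 0.097). Bhlhe40, a basic helix-loop-helix factor of activated T cells, went from 196, 203 and 203 to 848, 845 and 782 CPM (log2 fold change 2.07 ± 0.044). Maf, a regulator of IL-10 expression, was at 41.9, 51.9 and 42.4 CPM in Tconv and at 240, 224 and 240 CPM in Treg cells. Prdm1, which encodes Blimp-1, had a log2 fold change of 1.73 ± 0.058. Gata3 and Irf4, factors of effector Treg cells, differed less, with log2 fold changes of 0.98 and 0.95. The 2 lower members were Id2, an inhibitor of helix-loop-helix factors (-0.88 ± 0.045), and the nuclear receptor Nr4a3 (-0.37 ± 0.044). The fit of all 24 libraries called 11 members higher and 1 lower, with adjusted p-values of 0.609 for Rel and 0.0706 for Nr4a3.

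All 20 listed surface receptors of Treg cells were higher, each at least 2-fold, with a median log2 fold change of 3.35. Il2ra (chr2:11642807-11693193), which encodes CD25, was at 7.48, 8.54 and 9.3 CPM in Tconv and at 218, 211 and 217 CPM in Treg libraries. This gap (log2 fold change 4.71 ± 0.070) was wide beside the spread in either group. Ctla4 (chr1:60887000-60915832) was at 95.9, 106 and 107 CPM in Tconv cells, so it was present there too, and at 637, 610 and 642 CPM in Treg cells (log2 fold change 2.64 ± 0.055). Among the TNF receptors, Tnfrsf4, the gene of OX40 itself, was at 31.5, 30.1 and 30.6 CPM in Tconv and at 286, 287 and 249 CPM in Treg cells (log2 fold change 3.18 ± 0.056). The receptor of the injected OX40L was thus higher in every Treg library than in any Tconv library. Tnfrsf9, the costimulatory receptor 4-1BB, went from 8.51, 11.2 and 9.46 to 304, 310 and 300 CPM (log2 fold change 5.01 ± 0.075).

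Among the receptors, the widest gap belonged to Itgae, the integrin chain CD103 that binds E-cadherin on epithelia. Its values were 4.43, 3.41 and 5.04 CPM in Tconv and 345, 342 and 302 CPM in Treg libraries (log2 fold change 6.29 ± 0.095). Itgb8 and Lrrc32, whose proteins present and activate latent TGF-beta, had log2 fold changes of 5.07 ± 0.10 and 5.24 ± 0.096. Il1rl1, the receptor of IL-33, was at 1.46, 1.93 and 2.34 CPM in Tconv and at 74.8, 74.2 and 74.1 CPM in Treg cells, and Il1r2, a decoy receptor of IL-1, had a log2 fold change of 4.98 ± 0.12. Klrg1, a marker of terminally differentiated effector Treg cells, stayed under 0.5 CPM in Tconv libraries and was at 13.1, 12.1 and 14.3 CPM in Treg libraries. Gpr83 (log2 fold change 1.75) was the only receptor of this list that was not called in the fit of all 24 libraries, with an adjusted p of 0.147 there.

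Genes of suppressive mediators were higher as well. All 12 measured of the 13 listed were called higher, 11 at least 2-fold, with a median log2 fold change of 3.20, and Il12a was too low to test. Il10 (chr1:131019845-131024974), the gene of the anti-inflammatory cytokine, was at 8.26, 9.13 and 7.93 CPM in Tconv and at 59.2, 55.6 and 54.6 CPM in Treg libraries (log2 fold change 2.77 ± 0.074). The groups were well apart, with Tconv cells also holding some Il10. Nt5e, which encodes the adenosine-forming enzyme CD73, was at 27.4, 28.8 and 29.2 CPM in Tconv and at 174, 184 and 172 CPM in Treg cells (log2 fold change 2.66 ± 0.051). Its partner Entpd1, which encodes CD39, was at 8.34, 9.16 and 7.38 CPM in Tconv and at 43.5, 46.6 and 47.5 CPM in Treg cells, with an adjusted p of 0.058 in the fit of all 24 libraries. Penk, the precursor of enkephalins, was at 3.45, 2.96 and 2.95 CPM in Tconv and at 106, 108 and 95.6 CPM in Treg cells. Areg, a growth factor of tissue repair, went from 4.81, 3.71 and 3.9 to 53.4, 48.1 and 49.3 CPM, and Gzmb, the granule protease granzyme B, from 2.01, 1.57 and 2.14 to 25.8, 25.3 and 20.3 CPM. Tgfb1, the gene of TGF-beta itself, was the exception in size, with a log2 fold change of 0.29 ± 0.052 and an adjusted p of 0.307 in the fit of all 24 libraries.

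Receptors and signalling genes of IL-2 and related cytokines went both ways. Of 20 listed, 6 were higher and 12 lower, with a median log2 fold change of -0.35. Il7r (the IL-7 receptor chain CD127, known to be low on Treg cells) was at 518, 552 and 541 CPM in Tconv and at 208, 206 and 209 CPM in Treg libraries (log2 fold change -1.34 ± 0.045). Receptor chains of IL-4 and IL-6 were lower too, Il4ra by -1.44 ± 0.052 and Il6ra by -1.64 ± 0.052 on the log2 scale. Il2rb, the beta chain that IL-2 and IL-15 share, was the opposite, at 72.2, 71.2 and 73.1 CPM in Tconv and 448, 441 and 409 CPM in Treg cells. The common gamma chain Il2rg did not pass, with 197, 200 and 199 CPM against 186, 182 and 183 CPM, and a share of 0.305 of its exonic bases overlaps other genes. Downstream, Socs2, a feedback inhibitor, was higher (log2 fold change 3.88 ± 0.17), as was the kinase Jak3 (1.23 ± 0.062), while Jak1 (-0.71 ± 0.042) and Socs3 (-1.07 ± 0.049) were lower. Survival genes of the BCL2 family split. Mcl1 was lower, with 696, 736 and 722 CPM in Tconv and 340, 328 and 330 CPM in Treg cells, and Bcl2 had a log2 fold change of -0.95 ± 0.053. Bcl2l1, which encodes BCL-XL, was at 15.7, 18.1 and 17.3 CPM in Tconv and at 66, 63.5 and 62.3 CPM in Treg cells (log2 fold change 1.94 ± 0.065).

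Genes of naive and recirculating T cells were lower in Treg cells throughout the list. All 16 listed were lower in Treg cells, 13 at least 2-fold, with a median log2 fold change of -1.89, and the fit of all 24 libraries called 14 of them lower, losing Id3 and Ly6c1. Satb1 (chr17:51736187-51833290), a chromatin organiser, was at 1497, 1560 and 1580 CPM in Tconv and at 189, 181 and 188 CPM in Treg libraries (log2 fold change -3.02 ± 0.049, adjusted p = 1.43e-15). The lymph node homing chemokine receptor gene Ccr7 (chr11:99144196-99155077) was at 1107, 1034 and 1103 CPM in Tconv and at 193, 189 and 167 CPM in Treg cells (log2 fold change -2.53 ± 0.053). S1pr1, the receptor for exit from lymph nodes, and its activator Klf2 had log2 fold changes of -1.77 ± 0.047 and -1.92 ± 0.051. The paired factors of naive cells Lef1 and Tcf7 were lower by -2.59 ± 0.045 and -1.48 ± 0.045. Igfbp4, a binding protein of insulin-like growth factors found in naive T cells, fell from 444, 416 and 424 CPM to 5.86, 6.87 and 7.62 CPM (log2 fold change -5.96 ± 0.086), the lowest log2 fold change among the genes the naming rule selects. Summed over the list, naive genes made up 10731 CPM in Tconv (range 10642 to 10796) and 2785 CPM in Treg cells (range 2707 to 2864), and the ranges were far apart.

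**Figure D3:**
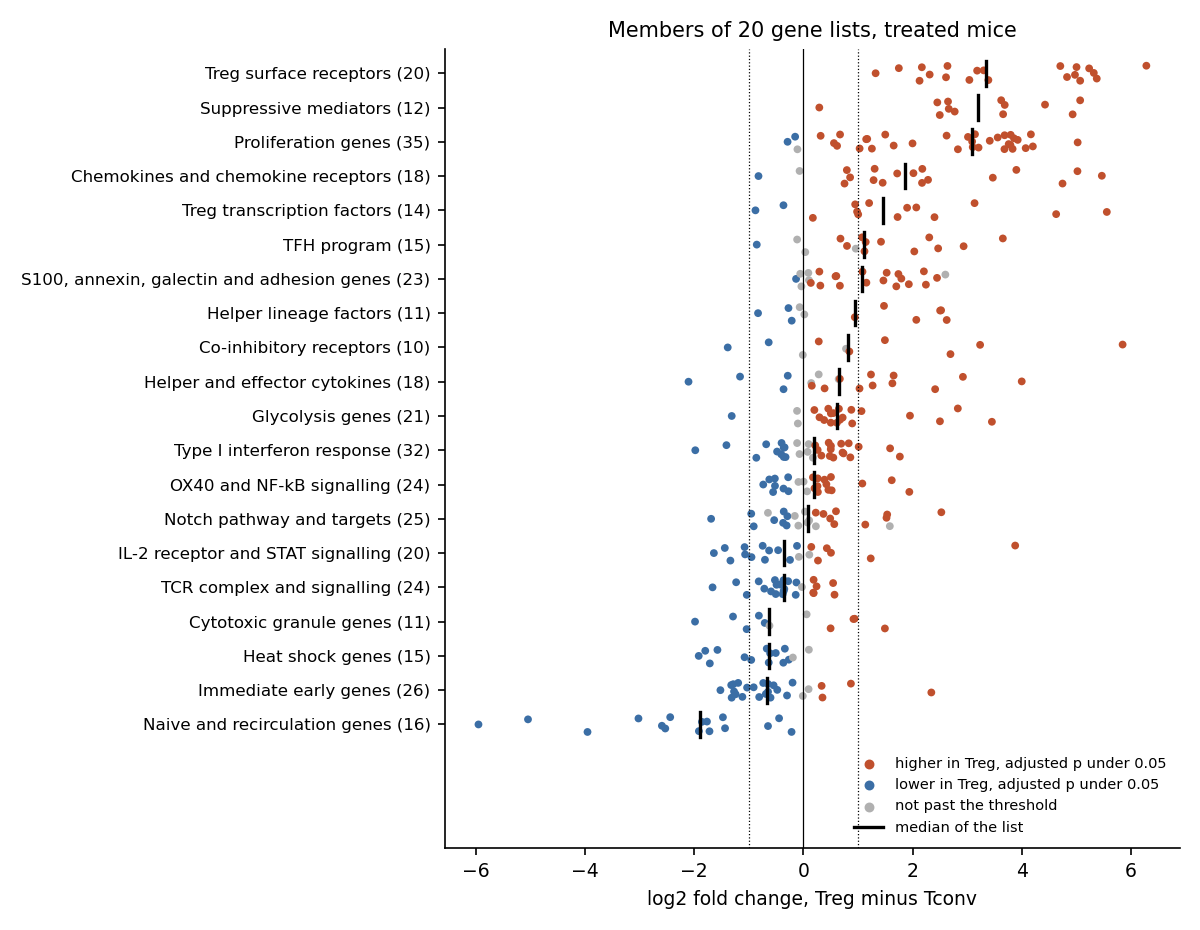
Each point is a measured member of 1 of 20 gene lists (number of members in brackets), placed by its log2 fold change, Treg minus Tconv, in treated mice; red and blue points passed the test, grey ones did not, and black bars are list medians. The medians run from -1.89 for naive and recirculation genes to 3.35 for Treg surface receptors, with proliferation genes at 3.09 and the Notch list at 0.08.

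Signalling from the T cell receptor was represented by 24 genes, of which 17 were lower and 6 higher in Treg cells, with a median log2 fold change of -0.36. Themis, a signalling scaffold, was at 363, 412 and 415 CPM in Tconv and at 166, 157 and 171 CPM in Treg libraries, groups that did not overlap (log2 fold change -1.23 ± 0.059). The CD3 chains differed less, Cd3g by -0.43 ± 0.046 and Cd3d by -0.49 ± 0.054. Cd5, an inhibitory receptor that rises with receptor signalling, was higher, at 270, 243 and 261 CPM in Tconv and 387, 395 and 345 CPM in Treg cells. Immediate early genes, which respond within minutes to stimulation, were lower in 20 of 26 and higher in 4, with a median of -0.67. Nr4a1, an orphan nuclear receptor used as a reporter of receptor signalling, was at 838, 817 and 789 CPM in Tconv and at 290, 287 and 258 CPM in Treg cells (log2 fold change -1.52 ± 0.048). Egr1 was at 393, 391 and 393 CPM against 168, 166 and 153 CPM. Subunits of AP-1 were lower too, Jun by -1.20 ± 0.061 and Fos by -0.81 ± 0.043. Dusp4, a MAP kinase phosphatase, went against the list, with 34.2, 30.4 and 30.5 CPM in Tconv and 166, 161 and 147 CPM in Treg cells (log2 fold change 2.34 ± 0.060), as did Nr4a2 (0.87 ± 0.053). In the fit of all 24 libraries 17 immediate early genes were lower and 2 higher.

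Heat shock genes, chaperones made under protein stress, moved with the immediate early genes. Of 15 listed, 13 were lower in Treg cells, 0 higher, and 5 at least 2-fold lower, with a median log2 fold change of -0.64. Hspa1b (chr17:34956436-34959238), an inducible HSP70, was at 4533, 4322 and 4117 CPM in Tconv and at 1170, 1175 and 1017 CPM in Treg libraries (log2 fold change -1.92 ± 0.055). It and the near-identical Hspa1a (-1.58 ± 0.055) can share reads, so the split between them is uncertain. The co-chaperones Dnajb1 and Dnajb4 had log2 fold changes of -1.72 ± 0.055 and -1.80 ± 0.053, and the constitutive Hspa8 one of -1.08 ± 0.051. The summed level of the list was 22222 CPM in Tconv and 9908 CPM in Treg cells. Tconv and Treg cells of control mice had 5598 and 3344 CPM, so the Tconv cells of treated mice held the most. Immediate early genes summed to 22456 and 11789 CPM in treated Tconv and Treg cells and to 6676 and 6749 CPM in the control groups.

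Promoters of the heat shock list are shown because its members were lower together. RefSeq promoters (GRCm38.p6), read from 150 bases before to 20 after the start, were found for 12 members and for 10224 tested genes. The letters GAANNTTC, which read the same on both strands and are part of the element that heat shock factor binds, were in 6 of the 12 (50%) and in 3.03% of all. Of promoters of genes at least 2-fold lower in Treg cells, 2.63% held them. Capitals mark these letters in the promoters of Hspa1b (chr17:34959219-34959388, minus strand) and of Hspe1 (chr1:55087998-55088167, plus strand), a mitochondrial chaperonin with a log2 fold change of -0.61 ± 0.046.
Hspa1b: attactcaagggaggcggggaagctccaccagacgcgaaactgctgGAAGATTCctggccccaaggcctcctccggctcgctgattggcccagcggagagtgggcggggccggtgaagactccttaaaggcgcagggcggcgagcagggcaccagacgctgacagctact
Hspe1: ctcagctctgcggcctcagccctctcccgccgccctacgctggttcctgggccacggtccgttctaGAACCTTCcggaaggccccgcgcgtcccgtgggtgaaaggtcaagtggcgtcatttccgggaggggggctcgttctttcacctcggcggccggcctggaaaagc
A match is a description of the letters and shows no binding.

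Genes of cell division were much higher in Treg cells. Of 35 proliferation genes, 32 were higher, 28 at least 2-fold, and 2 lower, with a median log2 fold change of 3.09, and the fit of all 24 libraries called 27 higher and 0 lower. Mki67 (chr7:135689784-135716361), the Ki-67 antigen of cycling cells, was at 65.5, 66.2 and 58.1 CPM in Tconv and at 907, 915 and 829 CPM in Treg libraries (log2 fold change 3.83 ± 0.059). The Treg libraries were all far above the Tconv libraries. Top2a, the topoisomerase that untangles replicated DNA, went from 45.7, 49.6 and 44.2 to 326, 327 and 319 CPM (log2 fold change 2.83 ± 0.052). Cdk1, the mitotic kinase, was at 3, 2.49 and 2.81 CPM in Tconv and at 32.9, 33.7 and 29.7 CPM in Treg cells, and its partner Ccnb2 (cyclin B2) at 2.44, 2.73 and 3.37 against 42.4, 41.4 and 37.3 CPM. Among kinetochore and spindle genes, Cenpf had a log2 fold change of 4.17 ± 0.081, Aurkb one of 5.03 ± 0.19 and Bub1 one of 4.07 ± 0.12.

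Genes of DNA replication varied in size of change. The helicase subunits Mcm3 and Mcm6 had log2 fold changes of 1.25 ± 0.054 and 1.65 ± 0.046, while Mcm4, with 0.32 ± 0.043, was not called in the fit of all 24 libraries (adjusted p = 0.34). Rrm2, which makes deoxynucleotides, went from 9.72, 10.6 and 12.3 to 86, 84.6 and 87.2 CPM. The exceptions were Pcna, the replication clamp (-0.15 ± 0.041), and the licensing factor Cdt1 (-0.29 ± 0.060), both called lower here but not in the fit of all 24 libraries (adjusted p = 0.388 and 0.658), and the kinesin Kif23, which did not pass at an adjusted p of 0.062. Histone genes that are expressed in S phase, a list added after the values were seen, were higher in 57 of 61 and lower in 1, 49 at least 2-fold higher, with a median of 1.78. Copies of histone genes can share reads. Hist1h1b, a linker histone, was at 17.1, 16.8 and 16.7 CPM in Tconv and 162, 163 and 144 CPM in Treg cells. The proliferation list summed to 1395 CPM in Tconv (range 1372 to 1407) and to 3920 CPM in Treg cells (range 3729 to 4042), with no overlap.

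Promoters of the mitotic genes are shown for the same reason as above. The CCAAT box, the site of the factor NF-Y, was in 23 of 29 proliferation promoters (79.3%) on either strand and in 29.9% of all 10224, and 51.7% against 10.2% held at least 2 copies. The letters TTTGAA, part of the cell cycle element that represses mitotic genes in resting cells, were in 34.5% against 5.87%. Over all genes at least 2-fold higher in Treg cells these shares were 30.5% and 8.95%. Capitals mark both motifs, ATTGG being CCAAT on the other strand, in the minus strand promoters of Ccnb2 (chr9:70421535-70421704), Cdk1 (chr10:69352893-69353062) and Cenpf (chr1:189688067-189688236).
Ccnb2: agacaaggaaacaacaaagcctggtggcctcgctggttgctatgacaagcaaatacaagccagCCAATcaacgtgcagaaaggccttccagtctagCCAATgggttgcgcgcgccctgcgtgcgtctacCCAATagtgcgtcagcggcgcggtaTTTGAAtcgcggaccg
Cdk1: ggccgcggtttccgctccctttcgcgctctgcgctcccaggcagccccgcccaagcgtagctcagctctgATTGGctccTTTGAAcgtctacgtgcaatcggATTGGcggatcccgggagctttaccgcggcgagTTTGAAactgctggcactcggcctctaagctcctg
Cenpf: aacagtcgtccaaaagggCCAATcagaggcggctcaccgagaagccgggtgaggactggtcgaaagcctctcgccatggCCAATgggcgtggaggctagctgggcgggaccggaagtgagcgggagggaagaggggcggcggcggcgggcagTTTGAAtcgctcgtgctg
In each of these 3 promoters a CCAAT letter run lies upstream of a TTTGAA run near the start.

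Glycolysis genes were higher alongside, 18 of 21, with 1 lower and a median log2 fold change of 0.61. Hk2, the inducible hexokinase, was at 7.73, 6.17 and 7.93 CPM in Tconv and at 49.8, 55.6 and 47 CPM in Treg libraries (log2 fold change 2.83 ± 0.096). Tpi1, triose phosphate isomerase, and Slc16a3, a lactate exporter, had log2 fold changes of 1.95 ± 0.063 and 3.45 ± 0.18. Pdk1, a kinase that inhibits pyruvate dehydrogenase, was the 1 lower member. It was at 173, 179 and 178 CPM in Tconv and at 73.2, 70.5 and 64.9 CPM in Treg cells. Ribosomal protein genes, also listed after their values were seen, went the other way from the division genes. Of 82 measured, 77 were lower and 1 higher, 45 at least 2-fold lower, with a median of -1.03. Rps24, a subunit of the small ribosome particle, was at 3608, 3466 and 3221 CPM in Tconv and at 1201, 1226 and 1127 CPM in Treg cells (log2 fold change -1.50 ± 0.051). The 13 mitochondrially encoded mRNAs had 8 lower and 0 higher, with a median of -0.40.

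**Figure D4:**
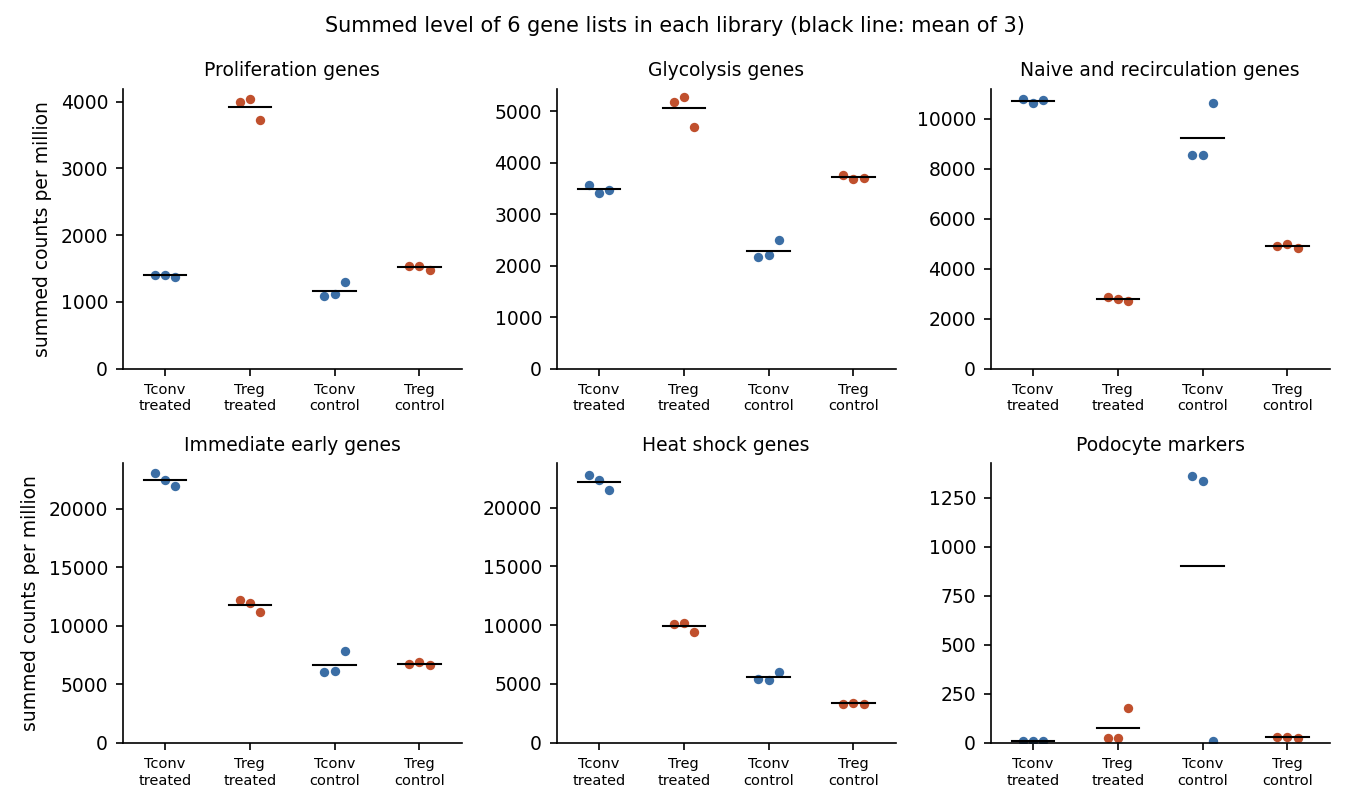
Summed CPM of 6 gene lists in each library of treated and control mice, Tconv in blue and Treg in red, with black lines at the mean of 3. Proliferation sums are highest in the treated Treg libraries (3729 to 4042 CPM), heat shock and immediate early sums in the treated Tconv libraries, and podocyte markers in control Tconv libraries 1 and 2.

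The chemokines and receptors of the chemokine list were mostly higher in Treg cells. Of 18 chemokines and receptors measured of 20 listed, 16 were higher, 13 at least 2-fold, and 1 lower, with a median log2 fold change of 1.87, and 8 were higher and 0 lower in the fit of all 24 libraries. Cxcr3, a receptor of Th1-type cells, was at 31.2, 29 and 29 CPM in Tconv and at 133, 137 and 125 CPM in Treg libraries (log2 fold change 2.17 ± 0.055). Ccr8, found on tissue Treg cells, was at 1.18, 0.86 and 1.06 CPM in Tconv and at 30.5, 31.2 and 25.6 CPM in Treg cells, and Ccr6, a receptor of Th17-type cells, at 0.781, 0.445 and 0.501 against 25.4, 25.9 and 25 CPM. Gpr15, a receptor for homing to the gut, had a log2 fold change of 3.47 ± 0.089. Exceptions in this list were Gpr183 and Cxcr4. Gpr183, an oxysterol receptor that positions cells in lymphoid tissue, was lower (-0.82 ± 0.041, adjusted p 0.0943 in the fit of all 24 libraries). Cxcr4 did not pass (300, 299 and 305 against 285, 285 and 272 CPM). Ccr7 was counted among the naive genes instead, and was lower in every Treg library than in any Tconv library.

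Cytokine genes went both ways, with more of them higher. Of 22 listed, 18 were measured, with Il3, Il9, Il17a and Il17f too low to test, and 11 were higher and 4 lower, with a median log2 fold change of 0.66. In the fit of all 24 libraries Csf1, Lif, Tnfsf8 and Tnfsf11 were higher and Cd40lg lower. Cd40lg (chrX:57212143-57224042), the helper signal to B cells, was at 141, 152 and 146 CPM in Tconv and at 33.1, 33.9 and 33 CPM in Treg libraries (log2 fold change -2.11 ± 0.050). Csf1, a growth factor of macrophages, was at 14.2, 12 and 11.1 CPM in Tconv and at 95.8, 93.1 and 88.7 CPM in Treg cells, and Tnfsf8, the ligand of CD30, at 88.4, 99.4 and 96.5 against 225, 226 and 219 CPM. Tnfrsf8, the receptor CD30 itself, was also higher, staying under 0.7 CPM in Tconv and standing at 26.3, 28.9 and 27 CPM in Treg cells. Ifng (chr10:118441046-118445892), the Th1 cytokine, was nearly level, at 43.6, 42.2 and 42.7 CPM in Tconv and 45.8, 47.5 and 46.6 CPM in Treg cells. It passed with a log2 fold change of only 0.15 ± 0.056 (adjusted p = 0.0283), and over the alternatives its adjusted p ran from 0.0154 to 1. The call was lost without Tconv library 2 (0.0886), Tconv library 3 (0.0687) or Treg library 2 (0.0521), and a share of 0.26 of its exonic bases overlaps other genes. Il2, the growth factor that Treg cells take up but barely make, did not pass, with 1.99, 2.31 and 1.61 against 2.06, 2.38 and 1.95 CPM.

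Factors that set helper lineages and granule genes showed mixed differences. Of 11 lineage factors measured 6 were higher, 5 at least 2-fold, and 3 lower, with a median log2 fold change of 0.94. The largest change was that of Ahr, the aryl hydrocarbon receptor. It was at 25.5, 31.6 and 31.5 CPM in Tconv and 182, 179 and 174 CPM in Treg libraries (log2 fold change 2.63 ± 0.069). Hopx, a factor of differentiated T cells, had a log2 fold change of 2.51 ± 0.067, but a share of 0.27 of its exonic bases overlaps other genes. Tbx21, the Th1 factor T-bet, was at 5.31, 3.56 and 4.29 CPM in Tconv and at 13.5, 11.9 and 10.5 CPM in Treg cells, with an adjusted p of 0.113 in the fit of all 24 libraries. Of 11 cytotoxic granule genes 4 were higher and 5 lower, with a median of -0.62. Gzmb, given above, was not in this list. Perforin, encoded by Prf1, was at 54.7, 55.6 and 48.5 CPM in Tconv and at 13.3, 12.8 and 13.2 CPM in Treg cells, with an adjusted p of 0.233 in the fit of all 24 libraries.

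Both gates excluded CXCR5, yet genes of the follicular helper program were higher in Treg cells. Of 15 listed, 11 were higher, 9 at least 2-fold, and 1 lower, with a median log2 fold change of 1.12. Pdcd1 (chr1:94038305-94052553), which encodes PD-1, was at 9.8, 10.5 and 8.52 CPM in Tconv and at 74.1, 76.9 and 65 CPM in Treg libraries (log2 fold change 2.94 ± 0.082). Cxcr5, the gate gene, was at 14.5, 16 and 16.3 CPM in Tconv and at 41, 46.1 and 35.6 CPM in Treg cells (log2 fold change 1.42 ± 0.087). The lineage factor Bcl6 did not pass, with 34.9, 34 and 33.6 against 32.4, 31.1 and 29.3 CPM. Among 10 co-inhibitory receptors beyond CTLA-4 and PD-1, 6 were higher and 2 lower. Havcr2, which encodes TIM-3, was at 0.403, 0.741 and 0.473 CPM in Tconv and at 29.7, 32.8 and 28.1 CPM in Treg cells (log2 fold change 5.85 ± 0.15). Vsir, which encodes VISTA, was lower by -0.64 ± 0.051.

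Genes of the pathways that the injected proteins address went both ways. Of 24 genes of OX40 and NF-kB signalling, 13 were higher and 8 lower, with 3 at least 2-fold higher and a median log2 fold change of 0.19. Among all genes tested 30.4% were higher, 30.2% lower and 13.4% at least 2-fold higher. The adaptor Traf1 was at 226, 206 and 230 CPM in Tconv and at 478, 474 and 419 CPM in Treg libraries (log2 fold change 1.08 ± 0.054). Inhibitors of the pathway were lower, Nfkbia by -0.63 ± 0.047 and Tnfaip3 by -0.56 ± 0.045, as was Map3k14, the kinase of the alternative branch (-0.74 ± 0.058). Tnfsf4, the gene of the cells' own OX40L, was low in both groups, at 1.61, 1.27 and 1.7 CPM in Tconv and 4.69, 4.6 and 4.54 CPM in Treg cells.

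Of 25 measured Notch genes, 9 were higher and 8 lower, with a median log2 fold change of 0.08. Over all genes tested 30.4% were higher and 30.2% lower, so the Notch counts lay near the general share. Notch1, the main Notch receptor of T cells, did not pass, with 328, 317 and 326 CPM in Tconv and 349, 345 and 308 CPM in Treg libraries. Its adjusted p was 0.18 and ran from 0.0117, without Treg library 3, to 1 over the alternatives. Rbpj, the DNA-binding partner of Notch, was higher by 0.57 ± 0.058, and Psen2, a catalytic subunit of the gamma-secretase that frees Notch, by 1.13 ± 0.057. The target gene Dtx1 was lower, at 214, 191 and 195 CPM in Tconv and 145, 142 and 119 CPM in Treg cells (log2 fold change -0.54 ± 0.064), but with an adjusted p of 0.724 in the fit of all 24 libraries. Jag1, the gene of the injected ligand, was at 0.781, 0.474 and 0.362 CPM in Tconv and at 2.98, 1.69 and 4.56 CPM in Treg cells, highest in the library with kidney transcripts, and its call was lost in the fit of all 24 libraries (adjusted p 0.281).

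Type I interferon response genes, often raised in lupus, did not move together. Of 32 listed, 16 were higher and 11 lower, beside 30.4% and 30.2% of all genes tested. The median log2 fold change was 0.19, and the fit of all 24 libraries called 3 higher and 3 lower. Oas1a, an RNA sensor, was at 11.4, 8.18 and 10.7 CPM in Tconv and at 33.8, 37.1 and 30.4 CPM in Treg cells, while Oasl2, of the same family, was at 21.9, 25.2 and 26.2 CPM in Tconv and at 8.93, 9.62 and 8.4 CPM in Treg cells. Genes of S100 proteins, annexins, galectins and adhesion, typical of effector cells in tissue, had 17 of 23 higher and 1 lower, with a median of 1.08. Itgav, an integrin chain that can activate latent TGF-beta, was at 36.9, 42.9 and 44.1 CPM in Tconv and at 220, 217 and 224 CPM in Treg cells (log2 fold change 2.45 ± 0.063). Cd44, the hyaluronan receptor of experienced T cells, was at 169, 162 and 168 against 454, 454 and 442 CPM (log2 fold change 1.47 ± 0.044). S100a6, a calcium-binding protein, had a log2 fold change of 2.21 ± 0.076.

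The naming rule also selected genes outside these lists, by the size of their difference. Atp6v0d2, a subunit of the vacuolar proton pump, had the largest log2 fold change of those selected, 6.78 ± 0.12, with 0.504, 0.623 and 0.39 CPM in Tconv and 56.3, 56.8 and 50.4 CPM in Treg libraries. Hdac9, a histone deacetylase, stayed under 0.3 CPM in Tconv and was at 18.3, 20 and 21.4 CPM in Treg cells. Dscam, known as a neuronal adhesion molecule, was at 1.59, 1.45 and 1.89 CPM in Tconv and at 95.2, 97.3 and 83.5 CPM in Treg cells (log2 fold change 5.83 ± 0.095). Among lower genes, Dapl1, known from naive T cells, was at 37.2, 34.3 and 31.6 CPM in Tconv and near 1 CPM in every Treg library. Vipr1, the receptor of vasoactive intestinal peptide, fell from 132, 128 and 133 to 6.98, 5.06 and 4.68 CPM (log2 fold change -4.52 ± 0.10).

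Some further genes, picked out after their values were seen, also differed widely. Ttn, the giant sarcomere protein titin, was at 295, 279 and 305 CPM in Tconv and at 4942, 5065 and 4419 CPM in Treg libraries (log2 fold change 4.07 ± 0.057). Per length it came to 2.51 CPM per kb of exons in Tconv and to 41.2 in Treg cells. For scale, Ccr7 had 92.6 CPM per kb in the same Treg cells. Neb, another sarcomere gene, was at 16.5, 18 and 17.2 CPM in Tconv and at 326, 345 and 289 CPM in Treg cells. Axl, a receptor tyrosine kinase for apoptotic cell uptake, and Lamc1, a laminin chain, had log2 fold changes of 3.74 ± 0.064 and 5.34 ± 0.086, and neither was confined to Treg library 3 (185, 197 and 180 CPM for Axl).

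Markers of other cells moved with the groups as well. B cell markers summed to 37.4 CPM in Tconv (range 36.3 to 39.2) and 271 CPM in Treg libraries (range 255 to 286), and 7 of 10 measured were higher. Most of that sum was Cd74, the invariant chain of class II molecules (21.3, 19.9 and 19.2 against 196, 210 and 182 CPM), and the receptor Cd22, which was not called in the fit of all 24 libraries (adjusted p = 0.121). Defining B cell genes were near 0, with maxima over the 6 libraries of 0.241 CPM for Ms4a1 and 0.148 CPM for Pax5. Myeloid markers summed to 12.4 CPM in Tconv (range 11.6 to 13.7) and to 80.4 CPM in Treg libraries (range 78.6 to 83.9), most of it from Cybb, an oxidase subunit (6.47, 8.3 and 5.96 against 65.4, 64.4 and 67.2 CPM). Lyz2 and Csf1r reached at most 0.418 and 0.434 CPM, and S100a8 had 0 in all 6 libraries. Immunoglobulin Ighm was at 281, 260 and 267 CPM in Tconv and at 753, 777 and 692 CPM in Treg cells. CD8 and NK cell markers were lower in Treg cells in sum, 84.7 against 113 CPM. Plasma cell markers were higher in sum, 1083 against 549 CPM, and most of the Treg sum was Ighm. Of 8 measured, 4 were higher and 2 lower, with a median log2 fold change of 0.14. Fibroblast markers were also higher in sum, with 26.1, 26.0 and 38.5 CPM in Treg and 6.49 to 7.96 CPM in Tconv libraries. Endothelial markers were lower in sum, 279 against 442 CPM. Only 4 of 10 were measured, 2 lower and 0 higher, with 0 at least 2-fold lower. Flt1, Tek, Emcn, Tie1, Egfl7 and Plvap were too low to test. No range of these sums overlapped between the groups, and the part of other cell types in the differences above was not tested.

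Kidney transcripts were checked library by library. In Treg library 3 proximal tubule markers summed to 85.9 CPM, against 3.95 and 3.85 CPM in the other Treg libraries and 0.453 to 0.696 CPM in Tconv libraries. Gpx3, a secreted kidney peroxidase, was at 0.286, 0.231 and 42.8 CPM in the Treg libraries, and Kdr, an endothelial receptor, at 0.496, 0.213 and 45.6 CPM, and neither passed. Without this library, 2006 of the 2110 genes at least 2-fold higher and 1138 of the 1304 at least 2-fold lower were called at that size again.

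The last question was whether Treg and Tconv cells differed by more, or by less, in treated than in control mice. The difference itself was tested in 12 libraries, as the log2 fold change in treated minus that in control mice. Of 17377 genes, 2675 (15.4%) passed, 1455 (8.37%) with a larger and 1220 (7.02%) with a smaller log2 value in treated mice, and the median over all genes was 0.09. The share with a larger value, 54.4%, fell to 40.5% with no filter on low counts, where the median was 0.21, and to 29.5% in the fit of all 24 libraries, and rose to 67.3% without control Tconv library 3. Without the 3 libraries holding kidney transcripts, control Tconv keeps library 3 alone, so only sizes are given from that fit. Its median over all genes was -0.02. The treatment groups also differed in library properties. Mitochondrial genes took 1.85 to 2.66% of counts in the treated and 9.50 to 11.3% in the control libraries, depth was 37.3 to 53.8 M against 24.7 to 33.2 M, and these properties and treatment cannot be told apart.

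Proliferation genes differed by more between the subsets in treated mice. Of 35, 24 had a larger difference in treated mice and 0 a smaller one. The list's median log2 fold change was 3.09 in treated and 1.43 in control mice. The median of the difference was 1.23, or 0.84 without the kidney libraries. Its summed level, 1395 CPM in Tconv and 3920 CPM in Treg cells of treated mice, was 1169 and 1517 CPM in control mice. Cenpe, a motor of the kinetochore, was at 8.22, 8.45 and 7.03 CPM in control Tconv and at 24, 15.1 and 13.6 CPM in control Treg libraries, against 11.8, 9.75 and 11.2 and then 89, 94.8 and 91 CPM in treated mice (difference 2.06 ± 0.26, adjusted p = 0.00027). Mki67 depended on the control Tconv libraries, which stood at 12.1, 14.7 and 2.82 CPM. Its difference of 0.48 ± 0.59 did not pass and was 0.97 (adjusted p = 0.00106) without control Tconv library 3. Without the kidney libraries the difference was -1.33.

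Naive genes widened as well, downward. Of 16, 13 had a lower log2 value in treated mice and 2 a higher one. The median difference was -0.75, or -0.59 without the kidney libraries. Ccr7 was at 1127, 1087 and 1440 CPM in control Tconv and at 788, 758 and 728 CPM in control Treg cells, so the log2 fold change there was -0.69, and the difference between treated and control mice was -1.74 ± 0.10. Tconv levels of Ccr7 overlapped between treated and control mice, and Treg levels did not. Igfbp4 had a difference of -2.71 ± 0.22 by another route. Its Tconv levels were higher in treated mice, without overlap with the 80.5, 72.4 and 98.2 CPM of control Tconv libraries, and its Treg levels overlapped with the 11.9, 7.41 and 9.26 CPM of control Treg libraries. Satb1 had a difference of -1.43 ± 0.092, with both subsets lower in treated than in control mice (1965, 1967 and 2482 CPM in control Tconv, 762, 778 and 758 CPM in control Treg libraries). T cell receptor genes (14 of 24 lower, 0 higher) and immediate early genes (16 of 26 lower, 0 higher) also had more negative values in treated mice. The median differences of these 2 lists were -0.44 and -0.59, and without the kidney libraries -0.28 and -0.41. Nr4a1 was at 155, 170 and 204 CPM in control Tconv and at 149, 163 and 153 CPM in control Treg cells, groups that overlapped, with a difference of -1.23 ± 0.094.

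Part of the cytokine, chemokine and follicular helper genes had lower log2 values in treated mice. Of 18 cytokines, 9 had a lower value and 0 a higher one, of 18 chemokine genes 9 and 2, and of 15 follicular helper genes 9 and 1. Without the kidney libraries these were 7 and 0, 9 and 1, and 5 and 0. A lower value is not always a smaller gap, since Cd40lg went from a log2 fold change of -0.41 in control to -2.11 in treated mice (difference -1.60 ± 0.10). Ifng stood at 1.23, 1.78 and 3.29 CPM in control Tconv and at 30.5, 25.7 and 26.3 CPM in control Treg cells, well apart, where treated mice had nearly level groups (difference -3.44 ± 0.31, adjusted p = 3.8e-05). Tnfsf8 was at 18.7, 24.3 and 22.6 against 406, 442 and 417 CPM in control mice (difference -2.89 ± 0.11), and Cxcr3 at 4.13, 5.24 and 5.32 against 105, 124 and 116 CPM (difference -2.26 ± 0.12). Il10 was higher in the Treg libraries of control than of treated mice, at 108, 101 and 91.9 CPM, and lower in their Tconv libraries, at 2.19, 2.25 and 1.33 CPM (difference -2.82 ± 0.22). Pdcd1 showed the same order, with 4.41, 3.82 and 7.29 against 241, 224 and 201 CPM in control mice.

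Among genes that define Treg cells the differences went both ways. Il2ra had a larger difference in treated mice, with 9.22, 8.67 and 10.7 CPM in control Tconv and 104, 105 and 129 CPM in control Treg libraries (difference 1.25 ± 0.14). Ctla4 had a smaller one (-1.26 ± 0.089), with control Tconv cells at 32.1, 36 and 39.2 CPM and control Treg cells at 587, 578 and 571 CPM. Foxp3 had a difference of -0.68 ± 0.19 (adjusted p = 0.0381), a call that was lost without any 1 of the 6 treated or 3 control Treg libraries (adjusted p 0.0537 to 0.104). Without the 3 kidney libraries, where control Tconv keeps library 3 alone, the difference was -1.10. Tnfrsf4 did not pass, with a difference of 0.09 ± 0.10. Its control values, 30.2, 24.5 and 27.7 CPM in Tconv and 261, 250 and 251 CPM in Treg cells, lay near those of treated mice. Dscam was high in the Treg libraries of treated mice, and control libraries held 1.67, 1.85 and 2.38 CPM in Tconv and 2.9, 3.89 and 3.93 CPM in Treg cells (difference 5.08 ± 0.21). Cd74 also had a larger value in treated mice, against 25.7, 23.4 and 17.6 against 72.6, 66.3 and 67.3 CPM in control mice (difference 1.80 ± 0.18).

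**Figure D5:**
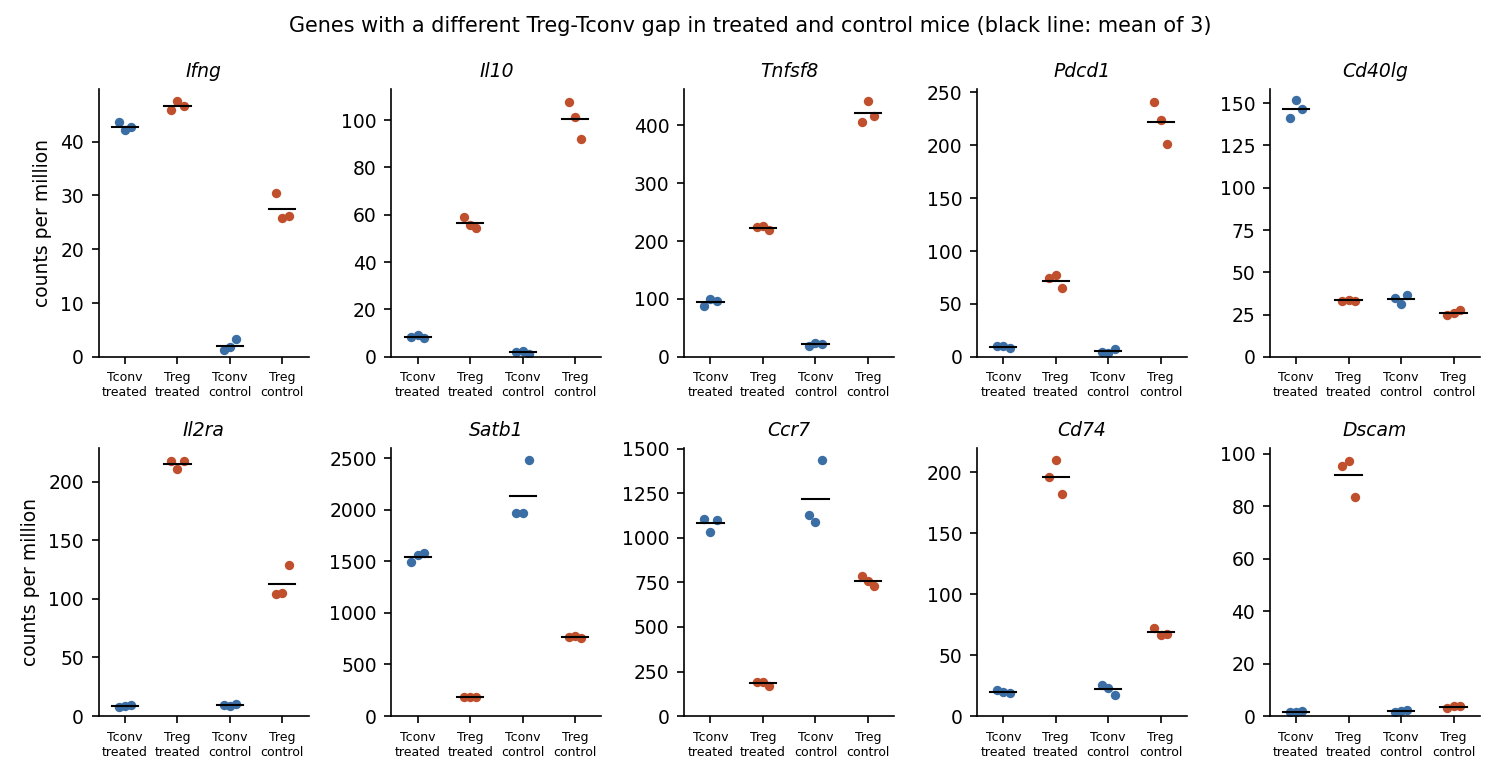
CPM of 10 genes in each library of Tconv (blue) and Treg cells (red) from treated and control mice, with black lines at the mean of 3. Ifng is nearly level between the subsets in treated mice and apart in control mice, Ccr7 drops in the treated Treg libraries (167 to 193 CPM), and Dscam is high there alone (83.5 to 97.3 CPM).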

How the data were processed

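Total RNA of sorted cells was purified on columns with DNase, depleted of ribosomal RNA and made into libraries with a CORALL kit, per the labels. STAR, featureCounts and mm10 were used, per the submitters' processing notes; tool versions, annotation and strand setting: not given in the sources used here. Raw read counts of 39056 genes were deposited by the authors. Names and coordinates came from GENCODE M21 (184 IDs unmatched).

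Counts were tested with edgeR 4.0.16 (R 4.3.3; filterByExpr, TMM, robust quasi-likelihood F test, two-sided, Benjamini-Hochberg over all genes tested, 0.05) on the 6 libraries, and on 12 with 4 group means for the contrast with control mice. Chi-square per degree of freedom between replicates was at least 4.70, so none were merged. On simulated counts of 15379 genes the test of 6 libraries recovered 100% of genes changed by log2 1. The changed genes were drawn only from genes at 10 CPM or more, and of 220 calls 20 were false. Far fewer genes were changed there than were called in the data, so scaling under broad change was not tested. On 16813 genes the test of 12 libraries recovered 62% at log2 1 and 92% at log2 2, and of 161 calls 7 were false.

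The members and the gene lists were chosen with earlier results of these data known. Genes were named by rule as the 12 per direction with the largest change among called genes without overlap, at 10 CPM or more and called also without Treg library 3, and 6 per direction for the contrast with control mice. The rule adds, per list, 4 members by smallest p, and a set fixed by name. Predicted genes, pseudogenes, immunoglobulin and receptor segments were left out. Other genes in the text were picked after their values were seen. Alternatives were relative log expression scaling, no filter, DESeq2 1.42.0, limma 3.58.1 voom, all 24 libraries, a replicate block, a test against 1.5-fold, and leaving out receptor and mitochondrial genes or libraries. Motifs were counted in RefSeq promoters.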

Additional observations from a re-analysis of the deposited data

Results flagged for a closer look

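The Treg-Tconv difference in treated mice was tested against that in control mice for 39 genes, those named by rule for this contrast, fixed by name or given with this value in the report. It differed for 30 of them (edgeR, adjusted p under 0.05). Those named by rule for this contrast were picked among genes that passed, and others after their values were seen. The count of 30 is therefore no measure of how common such differences were. Of all 17377 genes tested, 2675 (15.4%) passed. Values are the log2 fold change in treated minus that in control mice, with the value without the 3 kidney libraries where it bears on the reading. Only sizes are given from that fit, because control Tconv keeps library 3 alone. Of the 30 genes, 6 had their highest values in control Tconv libraries 1 and 2 and treated Treg library 3. They were Gpx3 (18.5, or 2.66 without these libraries), Nostrin (17.4, or 8.34), Tbx3 (17, or 2.48), Kdr (16.6, or 2.09), Tjp1 (15.4, or 3.81) and Bcam (15, or 5.8). Their fitted sizes depend on libraries near 0 and bound nothing.

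A lower log2 value in treated mice was found for Mmp10 (-5.14), a matrix protease, Col24a1 (-4.27), a collagen, and Adh1 (-3), an alcohol dehydrogenase. Immune genes of this direction were Ifng (-3.44), Tnfsf8 (-2.89), Il10 (-2.82), Pdcd1 (-2.38), Cxcr5 (-1.61), Cd40lg (-1.6), Nt5e (-1.41), Ctla4 (-1.26), Cxcr3 (-2.26), Cd4 (-0.698) and Foxp3 (-0.683). The calls of Foxp3 and Cxcr5 were lost without any 1 of the treated or control Treg libraries (adjusted p 0.0537 to 0.104 and 0.0511 to 0.0723). Without the kidney libraries their values were -1.1 and -2.72. Mmp10 was at -8.79 without them. Among naive and receptor signalling genes Igfbp4 (-2.71), Ccr7 (-1.74), Satb1 (-1.43) and Nr4a1 (-1.23) had lower values in treated mice. The sign for Cd4 differs between conditions, since it was lower in Treg than in Tconv cells of treated mice and higher in control mice (log2 fold change 0.42). A higher log2 value in treated mice was found for Dscam (5.08), Cenpe (2.06), Cd74 (1.8), Il2ra (1.25), Ikzf4 (0.96) and Tnfrsf18 (0.557). Each kept its direction without the kidney libraries.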

How the results depend on the processing

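There were 9531 calls between Treg and Tconv cells of treated mice, against 2226 in the fit of all 24 libraries and 3684 in a test against a 1.5-fold change. Leaving out 1 library gave 8532 to 9475. The labels do not say whether replicate numbers pair the samples. Correlations of deviations were 0.062, -0.26 and 0.104 for same-numbered libraries and -0.288 to 0.341 for others. With 3 libraries per group these values cannot decide it, and a replicate block gave 9428. Other settings gave 9360 to 10135. Genes also at least 2-fold apart numbered 3414, against 1186 with all 24 libraries, 3332 to 3509 without 1 library and 3395 with the replicate block. Of 118 named genes 97 kept direction and call under all settings and 0 reversed. Most of these genes were picked for the size or the p-value of their difference, so this does not stand for all genes. Of all 9531 calls, 2210 were called in the same direction in the fit of all 24 libraries.

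The 2675 calls of the contrast with control mice were less stable. There were 4277 with DESeq2, 4583 with limma voom, 474 with all 24 libraries, 1514 without the kidney libraries and 2050 with the replicate block. Without 1 library there were 1526 (treated Tconv 2) to 5796 (control Tconv 3). The other treated libraries left out gave 1539 to 1731, and control Tconv 2 1766. Some of the 39 genes given for this contrast changed direction or call under other settings. Values that reversed were Il7r (-0.0051 with no filter, -0.025 with voom, -0.057 with 24 libraries), Jag1 (-1.72), Mki67 (-1.33), Nrp1 (-0.52) and Notch1 (-0.10) without the kidney libraries, Notch1 (-0.017) and Tnfrsf4 (-0.052) with 24 libraries, and Tnfrsf4, at -0.00090 without control Tconv 1 and up to 0.153 without control Tconv 2. Over all 118 named genes 19 changed sign without the kidney libraries, and 0 of them were called as reported. Nrp1, Mki67, Cd200 (-1.55) and Itgb1 (-1.14) were among the 19. Axl (-2.12) and Lamc1 (-1.63) changed sign too. The cause was not tested. At these depths, 24.7 M or more, simulated log2 1 changes in the contrast with control mice were recovered at 62%.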
